A study of Mus musculus with 2 samples.

Results

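The 10 genes described here encode antiviral and immune products that interferon switches on: Ifit1, Ifit3, Isg15, Oasl2, Rtp4, Ifi44, Gbp2, Cxcl10, Bst2 and Ifitm3. They were chosen by symbol, with earlier results of these data known, and all 10 are among the 27998 genes counted. They were measured in single cells of the mouse buccal mucosa, the stratified lining of the cheek. The cells came from 12-week-old C57BL/6 females, for which the labels name no treatment. Tissue of 10 mice was pooled into 1 suspension, and basal cells were sorted by FACS for high CD104, the β4-integrin that anchors basal cells to the basement membrane. On the 10x Chromium the suspension was run as 2 technical replicates (library 1, library 2). There is thus 1 group, with no comparison of conditions and no replicate over animals. No p-values are given for that reason, and every interval covers counting error only.

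A cell was used if it held 500 genes or more and if no more than 10% of its UMIs (unique molecular identifiers, each standing for 1 captured transcript) were mitochondrial. This left 15470 of 16291 barcodes, 6907 in library 1 and 8563 in library 2, with medians of 7690 and 6709 UMIs per cell. Of the kept barcodes, 96 sequences occur in both libraries. All 7 basal keratinocyte markers examined, Itgb4 among them, exceeded 20 CPM (UMIs per 1000000) in the cells low in Krt4 and Krt13, and 6 of 7 did in the cells highest in them. Summed over the 7 markers, the level was 15340 and 15388 CPM in the former and 1838 and 2078 CPM in the latter.

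Interferons are secreted proteins that bind receptors on nearly every nucleated cell. Type I interferon signals through JAK kinases to a complex of transcription factors that binds a DNA element called the ISRE, and interferon-γ signals to factors that bind an element called the GAS. In epithelia the induced genes block steps of viral growth, mark cells for inspection by T cells and call in lymphocytes, and Ifitm3 is known for being made by many epithelial stem and progenitor cells without any infection.

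Upstream sequence was available for 9 of the 10 genes in RefSeq promoters (300 bases, from 250 before to 50 after the annotated start, build GRCm38.p6), and Rtp4 was not among them. The ISRE core was searched as GAAANNGAAA and the GAS as TTCNNNGAA on both strands. The stretches that hold the ISRE matches are shown because they are the sequence feature most of the genes share. They are written 5′ to 3′ on the strand of the gene, with matches to the ISRE core in capitals.
Ifit1: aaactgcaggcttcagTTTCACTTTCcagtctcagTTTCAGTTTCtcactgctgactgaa
Ifit3: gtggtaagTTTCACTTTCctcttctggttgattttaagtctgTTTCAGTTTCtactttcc
Isg15: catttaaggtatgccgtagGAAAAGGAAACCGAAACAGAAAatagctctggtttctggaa
Gbp2: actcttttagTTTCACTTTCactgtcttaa
Cxcl10: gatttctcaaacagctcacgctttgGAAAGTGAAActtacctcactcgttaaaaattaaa
Bst2: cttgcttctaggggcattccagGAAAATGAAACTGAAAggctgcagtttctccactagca
Ifitm3: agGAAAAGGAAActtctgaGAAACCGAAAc

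These stretches lie at chr19:34640769-34640828 on the plus strand for Ifit1, chr19:34583365-34583424 on the plus strand for Ifit3, chr4:156200856-156200915 on the minus strand for Isg15 and chr3:142620594-142620623 on the plus strand for Gbp2. The others lie on the minus strand, at chr5:92349068-92349127 for Cxcl10, chr8:71537565-71537624 for Bst2 and chr7:141010715-141010744 for Ifitm3. Those of Ifit1, Ifit3, Isg15, Cxcl10 and Bst2 are upstream of the gene in the annotation, and those of Gbp2 and Ifitm3 fall within an annotated first exon. An ISRE core was found in 7 of the 9 genes, against 3.44% of the 32851 promoters in the table. At least 2 cores were found in 5 of the 9, against 0.225% of promoters. In Isg15 there are 3 cores that overlap one another, at -78, -72 and -66 from the start. Ifit1 and Ifit3 hold the same pair of matches, TTTCACTTTC and TTTCAGTTTC, in the same order. The GAS motif was found in Bst2 (first base at -136) and Ifitm3 (at 14), against 8.30% of promoters, and in both it overlaps an ISRE match. Oasl2 and Ifi44 held neither motif in this window. A match describes the letters only.

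Few cells carried several of these transcripts at once. A UMI of at least 3 of the 10 genes was found in 658 cells of library 1 (9.53%, 95% exact binomial interval 8.84% to 10.2%) and in 808 cells of library 2 (9.44%, 8.82% to 10.1%). Ifitm3 alone was found in 92.8% and 91.7% of cells, so most cells with 3 genes held Ifitm3 and a pair of others. Without Ifitm3 and Bst2, which are the most widely detected, at least 3 of the other 8 were found in 267 cells (3.87%, 3.42% to 4.35%) and 369 cells (4.31%, 3.89% to 4.76%). None of these 8 was found in 79.4% and 78.8% of cells. The 267 and 369 cells held 68.7% and 69.7% of all UMIs of the 8 genes at full depth, but they were chosen by those same UMIs, so a large share is built into the choice. All 10 were found in 5 cells of each library.

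**Figure D1:**
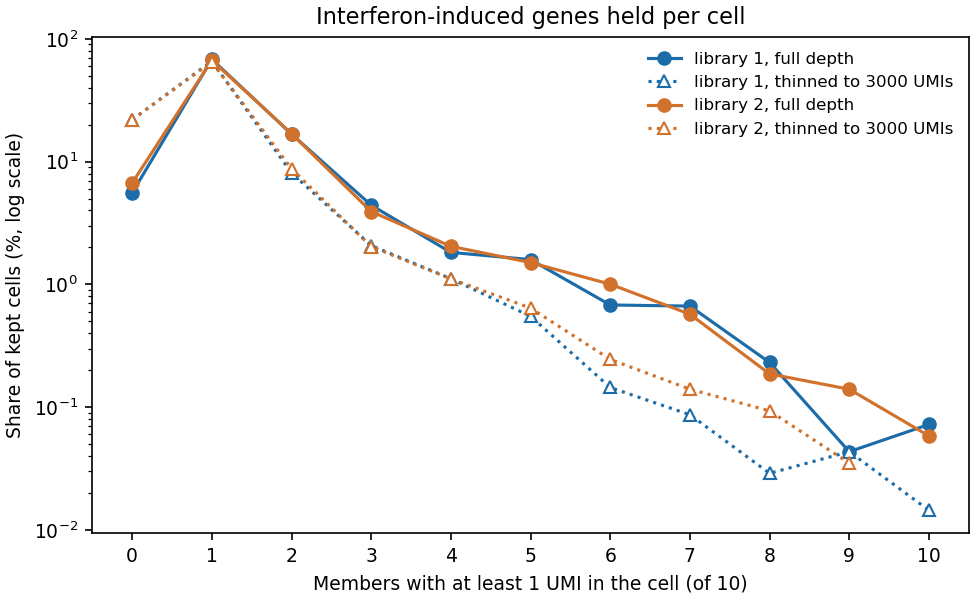
Share of kept cells (vertical axis, percent, log scale) that held a UMI of 0 to 10 of the interferon-induced genes (horizontal axis), by library, at full depth (filled circles) and after each cell was thinned to 3000 UMIs (open triangles). Most cells held 1 gene, and about 9.5% held at least 3 at full depth; shares of 0 cannot be shown on this axis.

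Depth moved with these counts. Cells with at least 3 of the 10 had medians of 10779.5 and 9181 UMIs against 7486 and 6513 in the other cells. When 3000 UMIs were drawn at random from every cell, which no cell fell short of, the share with at least 3 of the 10 was 4.05% and 4.30%, and that with at least 3 of the 8 was 1.49% and 1.73%. Cells chosen after thinning had full depths close to those of the others (6983 against 7697.5 UMIs, and 6219.5 against 6717, for 3 of the 8). These 103 and 148 cells held 39.7% and 42.1% of the UMIs of the 8 genes, and they too were chosen by part of them.

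Among the intracellular effectors, Ifit1, which binds viral RNA lacking the host's cap methylation, was found in 262 cells of library 1 and 391 of library 2 (3.79% and 4.57%). Its levels over all cells were 11.1 and 16.0 CPM. In most of these cells it was present as 1 UMI (153 and 226 cells), whereas 12 and 22 cells held at least 10, and the highest cells held 58 and 64. The 10 highest cells carried 30.03% and 26.8% of its UMIs. These 2 cells held 10 and 8 of the 10 genes.

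Isg15 encodes a ubiquitin-like protein that is joined to other proteins during infection. It was found in 748 and 962 cells (10.8% and 11.2%), at 30.2 and 37.7 CPM over all cells, and in up to 52 and 83 UMIs in 1 cell. Oasl2, a relative of the RNA-sensing oligoadenylate synthetases, and Rtp4, a receptor-transporter protein, were spread more evenly over the cells that held them. Their maxima were 12 and 10 UMIs for Oasl2 and 11 in either library for Rtp4. Oasl2 was found in 6.79% and 6.39% of cells and Rtp4 in 7.14% and 7.71%. Ifi44 was found in 1.95% and 2.21% of cells, with at most 7 and 8 UMIs.

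Ifit3, of the same family as Ifit1, was found in 21 and 30 cells only (0.304% and 0.350%), and single cells held 29 and 26 of its 73 and 110 UMIs. Ifit3 lies on chromosome 19 close to its near-identical copy Ifit3b, which had 39 and 46 UMIs. Because reads that match both copies can be lost or split in counting, the level of Ifit3 is uncertain.

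Gbp2, a GTPase that coats vacuoles holding microbes, was found in 293 and 329 cells (4.24% and 3.84%). In 243 and 287 of them it was 1 UMI, and the highest cells held 33 and 30. Cxcl10, a chemokine that draws activated T cells, was still more concentrated. It was found in 49 and 58 cells, and the 10 highest cells held 86.2% and 71.7% of its 376 and 413 UMIs. The highest Cxcl10 cell of library 1 held 75 UMIs and 7 of the 10 genes, and it was also the highest Gbp2 cell. The highest in library 2 held 59 UMIs of Cxcl10 and only 2 of the 10 genes.

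The membrane proteins were the most widely detected. Bst2 (tetherin, which holds budding virions at the cell surface) was found in 13.3% and 12.9% of cells, at 25.3 and 28.1 CPM. Ifitm3, which blocks fusion of virions in endosomes, stood at 678 and 666 CPM with a median of 5 and 4 UMIs in the cells that held it. Its 10 highest cells carried only 1.84% and 1.49% of its UMIs, so its transcripts were shared out over the whole population rather than held by a few cells. No cell type that lacks these genes was fixed beforehand in this sort, so the contribution of free RNA to cells with 1 UMI was not tested.

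The genes were found together in the same cells. In cells thinned to 3000 UMIs, both libraries counted, 52.7% of the 336 cells with Ifit1 also had Isg15 (47.2% to 58.1%), against 4.35% of cells without Ifit1. By library these shares were 54.1% against 4.07% and 51.7% against 4.58%. Of the 148 cells with Ifi44, 61.5% had Isg15 and 45.3% had Rtp4, against 4.86% and 3.31% of the cells without Ifi44. Ifit3 was found almost only beside the others: of its 29 thinned cells, 27 had Isg15 (93.1%) and 23 had Ifit1 (79.3%).

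Gbp2 and Cxcl10 were also found together. Of the 63 cells with Cxcl10, 33.3% had Gbp2 (21.95% to 46.3%), against 1.56% of the others, and of the 262 cells with Gbp2, 8.02% had Cxcl10, against 0.276%. Gbp2 cells held Isg15 less often (21.4%, against 5.13% without Gbp2) than Ifit1 cells did; the difference between those shares was not tested. Of cells with Bst2, 39.7% held at least 1 of the 8, against 9.75% of cells without it. For Ifitm3 the corresponding shares were 12.9% and 6.996%, and 26.4% in cells with at least 5 Ifitm3 UMIs.

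**Figure D2:**
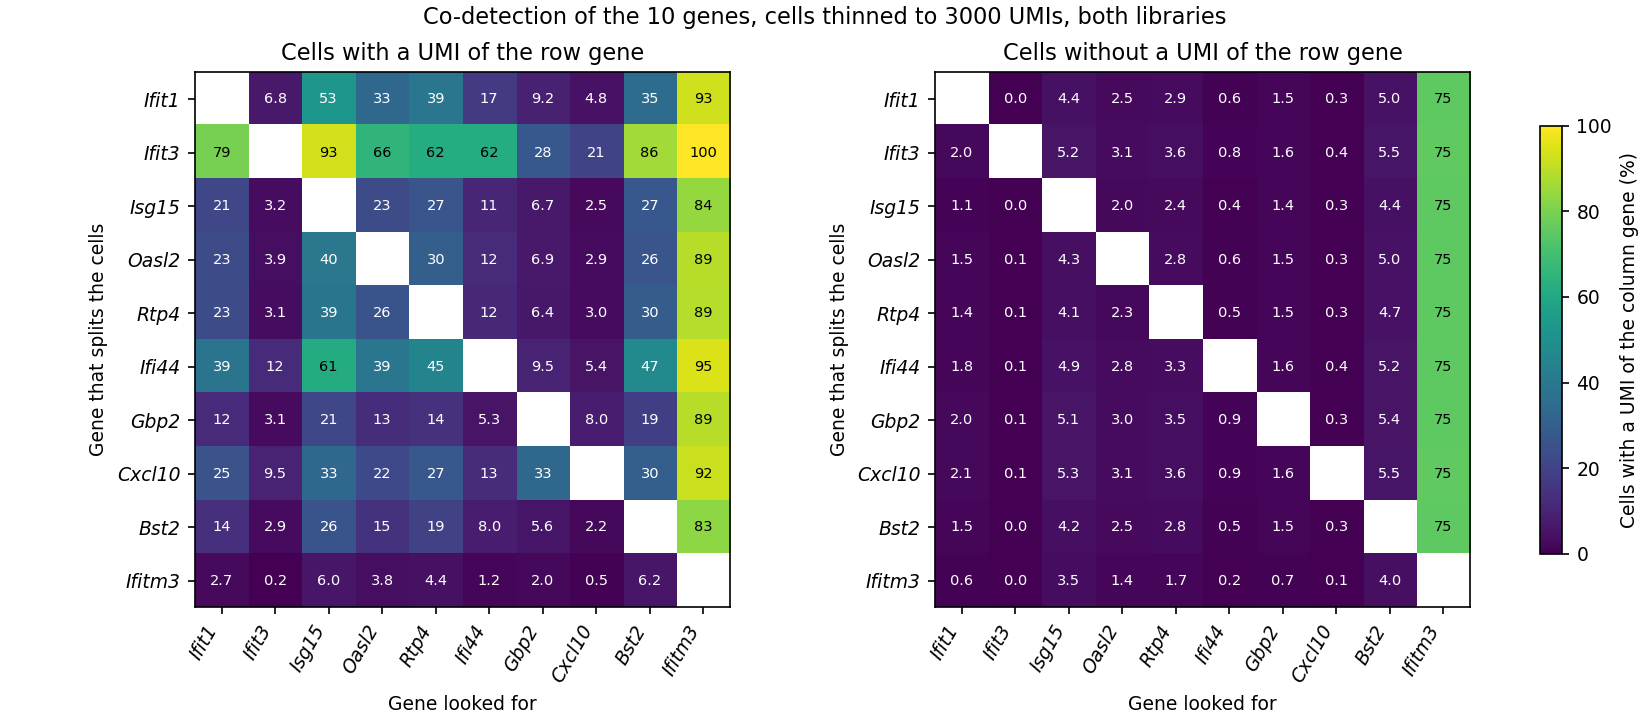
Share of cells (percent, colour and printed value) with a UMI of the gene in each column, among cells with (left) and without (right) a UMI of the gene in each row, both libraries, each cell thinned to 3000 UMIs. Rows for Ifit1, Ifit3 and Ifi44 are bright on the left across Isg15, Oasl2 and Rtp4, while on the right only Ifitm3 exceeds about 6%.

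Cells with more UMIs of a gene more often held at least 1 other of the 8. At full depth, both libraries counted, 32.7% of the 1055 cells with 1 UMI of Isg15 held another of the 8, as did 97.3% of the 222 cells with at least 5. For Ifit1 these shares were 66.2% of 379 cells and 83 of 83 cells, for Rtp4 52.7% of 689 and 83 of 83, and for Oasl2 58.0% of 696 and 47 of 47. Gbp2 had 36.0% of 530 and 97.1% of 34, and Cxcl10 37.3% of 67 and 96.6% of 29. At full depth, cells with 1 UMI of Gbp2, Isg15 or Cxcl10 thus mostly held none of the other 7, and cells with 5 or more rarely did. Depth is not held equal in these shares. After thinning, they were 33.8% of 571 cells and 95.2% of 63 for Isg15, and 27.0% of 222 and 6 of 6 for Gbp2. For Cxcl10 they were 32.4% of 34 and 82.4% of 17.

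To compare levels without letting a gene choose its own cells, each was measured in cells that held at least 3 of the other 9, against the remaining cells. A gene was called higher or lower when each library showed a difference of 1.5-fold or more (0.585 on the log2 scale) with the same sign, and when its level averaged over the 2 classes of cells was 20 CPM or more. Of the 7 genes that reached this mean, 7 were higher and 0 lower, but 6 of them (all but Ifitm3) were under 20 CPM in the remaining cells. A gene at such a level is measured only if it is high in the chosen cells, so that count supports nothing and the values are given as a description. With the minimum set instead on the level over all kept cells, a filter added after seeing the data, only Isg15, Bst2 and Ifitm3 were measured, and 3 of 3 were higher. The shares of all genes called higher under that filter were 0.901%, 0.842% and 1.12% for the cells chosen without each of them. Under the mean over the 2 classes, the share of all genes called higher was 1.76% for the cells chosen without Ifit1, 1.29% without Isg15, 1.66% without Oasl2, 1.7% without Rtp4, 1.76% without Gbp2, 1.23% without Bst2 and 1.7% without Ifitm3. It was 1.59%, 1.7% and 1.61% for cells chosen without Ifit3, Ifi44 and Cxcl10, whose means were under 20 CPM.

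Ifit1 stood at 78.2 CPM in the 629 cells of library 1 with at least 3 of the other 9 and at 1.66 CPM in the rest, and at 119 and 1.92 CPM in library 2, log2 ratios of 5.55 and 5.95. Isg15 was at 226 against 9.64 and 282 against 11.1 CPM (log2 4.55 and 4.67). Rtp4 and Oasl2 were alike in size, with log2 ratios of 4.18 and 4.29 for Rtp4 and 4.11 and 4.24 for Oasl2. Each of these 4 effectors had its own set of chosen cells, which held 68.3% to 89.5% of its UMIs. All 4 were under 20 CPM in the remaining cells, so no joint result is read from them.

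Gbp2 was at 50.1 against 3.60 CPM and 31.5 against 4.003 CPM (log2 3.80 and 2.97). In library 2 alone its mean was under 20 CPM. Bst2 was at 138 against 14.0 and 151 against 15.3 CPM (log2 3.30 and 3.31), with close to even shares of its UMIs inside and outside (49.8% and 50.7% inside). Ifitm3 showed the smallest ratio of the 7, 1622 against 608 CPM and 1393 against 607 CPM (log2 1.42 and 1.20), and only 16.5% and 15.6% of its UMIs lay in the chosen cells.

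For the 3 genes under 20 CPM no call was made. Ifi44 stood at 21.7 against 0.551 and 27.3 against 0.607 CPM, log2 ratios of 5.30 and 5.49. For Cxcl10 the log2 ratios were 6.22 and 4.40, and in library 1 alone its mean passed 20 CPM. Ifit3 had 70 of 73 and 107 of 110 UMIs inside, which leaves 3 outside in either library (log2 7.31, interval 5.71 to 9.62, and 7.93, interval 6.34 to 10.2).

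**Figure D3:**
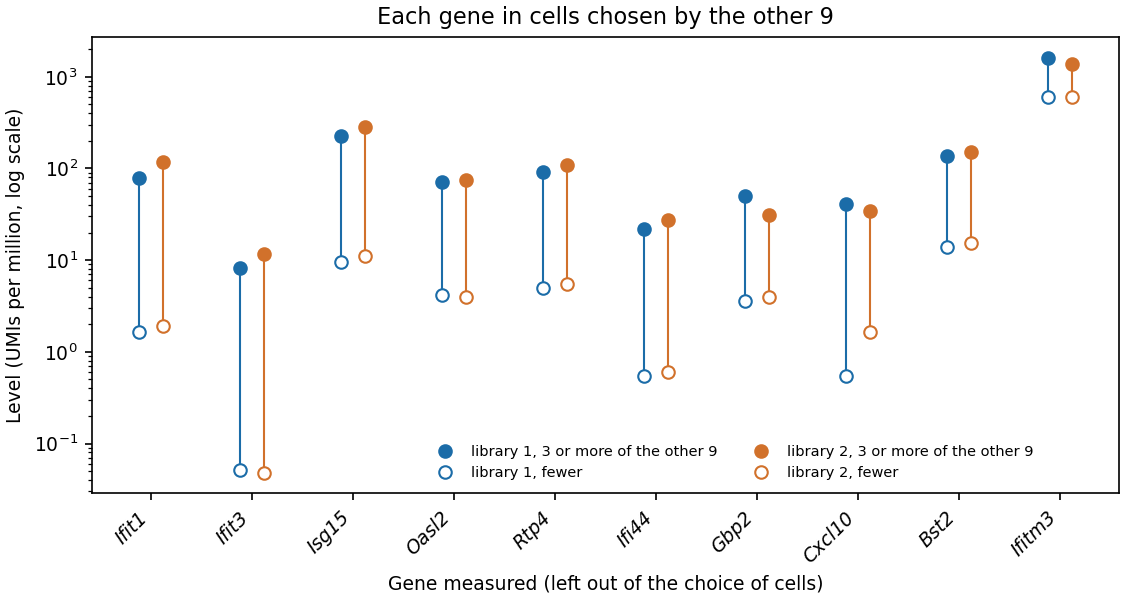
Level of each gene (vertical axis, UMIs per 1000000, log scale) in cells with at least 3 of the other 9 genes (filled) and in the remaining cells (open), by library; lines join the 2 classes of 1 library. Ifit1 reached 78.2 and 119 CPM in the chosen cells, and Ifitm3 had the shortest lines.

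Genes of the same pathway that took no part in choosing cells were then compared between cells with at least 3 of the 10 and the rest. The pathway lists were themselves chosen with earlier results of these data known. Of 133 pathway genes listed, 129 were found and 36 were measured. Of these, 23 were higher and 0 lower, where over all genes 1.59% were higher and 0.538% lower. Pathway genes under 20 CPM in the other cells could enter this count only by being higher in the chosen cells, so it and the counts by list that follow are descriptions. With the minimum set on the level over all kept cells, 17 of 30 were higher and 0 lower, against 1.14% of all genes higher. Cells chosen by 3 of the 8 gave 19 higher of 30 with that same minimum (1.04% over all genes).

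Of the JAK-STAT and IRF genes listed, which include kinases as well as transcription factors, 4 of 9 measured rose. Irf7, the factor that amplifies type I interferon output, was at 36.3 against 2.47 CPM in library 1 and 42.2 against 2.69 in library 2 (log2 3.88 and 3.97). Irf9 had log2 ratios of 1.44 and 1.28, and Nmi 1.18 and 1.32. Others of the list stayed within 1.5-fold, with Jak1 at -0.02 and 0.09, Stat3 at 0.15 and 0.00, and Irf3 at -0.35 and -0.16.

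Ligands and receptors were not called. Ifngr1, a chain of the interferon-γ receptor, was the 1 measured receptor gene and stayed within 1.5-fold (log2 -0.14 and -0.25). Ifnar1 stood at 12.1 against 13.8 CPM and 11.9 against 13.0 CPM. Of the ligands none was measured: Ifng had 12 and 1 UMIs in the chosen cells and 7 and 3 in the rest, and Ifnk was at 0 UMIs. Il18 and Il33, interleukins that the list holds beside the interferons, were under 20 CPM in both classes.

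Inhibition and sensing were each represented by 1 gene that rose. Usp18, which removes Isg15 from proteins and damps the receptor, had log2 ratios of 2.17 and 2.34, while Ptpn2 (-0.17 and -0.20) and Pias1 (-0.44 and -0.37) stayed within 1.5-fold. Eif2ak2, the kinase PKR that senses double-stranded RNA, had ratios of 1.12 and 0.83. The RNA sensor Ifih1 was under 20 CPM (log2 1.34 and 1.48).

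Of the other antiviral effectors, 6 of 9 measured rose: Xaf1 (log2 3.31 and 3.15), Ifi27l2a (2.97 and 3.0), Phf11d (1.97 and 1.77), Samd9l (1.45 and 1.46), Ifi35 (1.34 and 1.24) and Ly6e (0.63 and 0.62). Ifitm2 (-0.05 and -0.16) and Ifi27 (-0.02 and -0.17), paralogs of genes that rose, stayed within 1.5-fold. Interferon-inducible GTPases related to Gbp2 were all under 20 CPM, with log2 ratios of 4.90 and 4.60 for Ifi47, 4.33 and 3.76 for Igtp, 3.22 and 3.17 for Gbp7 and 2.14 and 2.33 for Irgm1. Chemokines were also under 20 CPM. Cxcl9, which shares a receptor with Cxcl10, had 251 and 43 UMIs in the chosen cells against 6 and 9 in the rest.

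Antigen presentation by MHC class I held the most genes that rose, 11 of 13 measured. The proteasome subunits Psmb8 (log2 2.94 and 2.78), Psmb9 (1.91 and 1.89) and Psmb10 (1.09 and 0.98) rose with the peptide transporter genes Tap1 (1.44 and 1.47) and Tap2 (1.15 and 1.35). B2m, the light chain of class I, went from 481 to 1910 CPM and from 510 to 2032 CPM, and the heavy chain gene H2-K1 had ratios of 1.37 and 1.38. Psme2 stayed within 1.5-fold (0.56 and 0.47). Reads of H2 genes can be shared among near-identical copies, so single H2 values are uncertain.

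Pathway genes were called at each level of mucosal differentiation. With the minimum set on the level over all kept cells, cells with at least 3 of the 10 had 18 of 30 pathway genes higher among cells under 80 for Krt4+Krt13 (in UMIs per 10000), 17 of 30 from 80 to 350 and 15 of 30 at 350 or more. The shares over all genes were 1.25%, 0.999% and 0.705%.

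By the smaller of the library ratios, the 12 highest other genes, of which 6 are pathway genes, included S100a9, S100a8, Irf7, Sprr2a3, Xaf1, Ifi27l2a, Alox15, Chil4, Psmb8, Krt16 and Usp18. S100a8 and S100a9, which encode the subunits of calprotectin, had log2 ratios of 4.44 and 4.23 and of 4.48 and 4.55. Chil4, a chitinase-like protein, went from 2757 to 19616 CPM and from 2822 to 23005 CPM. Sprr2a3 (3.40 and 3.50) and Chil4 (2.83 and 3.03) have near-identical copies, so their counts are uncertain.

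Among cells low in Krt16, S100a8 and Alox15 together, S100a9 stood at -0.45 and 0.50 and Krt16 at 0.64 and 0.31, while Alox15 (2.13 and 2.26), Chil4 (2.42 and 2.46) and Sprr2a3 (2.93 and 2.00) were still called higher. S100a8, Krt16 and Alox15 define that set of cells. The pathway count there was 22 of 35 measured (1.13% of all genes), and 17 of 30 with the minimum set on the level over all kept cells (0.881%).

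The 12 genes lowest in cells with at least 3 of the 10 were Krt1, Crabp1, Snai2, Gpnmb, Efemp1, Klf9, Zfp36l2, Cdca7, Pappa, Sox4, Dapk2 and Sh3bgrl. Krt1, a keratin of cornifying skin, was at 5.29 against 37.2 CPM and 7.66 against 33.8 CPM (log2 -2.81 and -2.14). The others had smaller ratios, with Crabp1, which binds retinoic acid, at -1.09 and -0.93 and Snai2, a repressor of differentiation in basal cells, at -0.81 and -0.90. Of the cells with at least 3 of the 10, 33.3% and 39.2% stood at 350 or more for Krt4+Krt13, against 21.1% and 24.0% of all cells, and cells in that bin were deeper. By bin, from the lowest up, the share with at least 3 of the 10 was 7.53%, 8.99% and 15.1% in library 1 and 6.59%, 9.17% and 15.4% in library 2 at full depth. After thinning these shares were 3.95%, 3.82% and 4.61%, and 3.54%, 4.73% and 5.30%, so the bins differed less at equal depth.

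The summed level of Langerhans and myeloid markers was lower in the chosen cells of library 1 and higher in those of library 2. Of the 9 Langerhans and myeloid markers, 8 and 9 were detected in cells with at least 3 of the 10, with sums of 54.1 CPM in library 1 and 688 in library 2, against 173 and 313 CPM in the other cells. Lyz2 was at 0 UMIs in the chosen cells of library 1. The 8 T and NK markers found in the files were all detected and summed to 30.2 and 30.9 against 16.1 and 15.9 CPM, with Cd3d at 0 in the other cells of library 2. Barcodes with at least 5 such UMIs per 10000 made up 10 of 658 and 16 of 808 chosen cells (1.52% and 1.98%), against 37 of 6249 and 58 of 7755 other cells (0.592% and 0.748%). With all such barcodes left out, the share with at least 3 of the 10 was 9.38% and the counts of 7 genes and 23 pathway genes were the same.

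Levels across mucosal differentiation were read in bins of summed Krt4 and Krt13, the keratins that cells of this epithelium make as they leave the basal state. The bins were under 80, 80 to 350 and at least 350 UMIs per 10000, holding 3517, 1936 and 1454 cells of library 1 and 4098, 2409 and 2056 of library 2. Between the outer bins, 3 of the 10 genes could be measured: Isg15 and Bst2 were higher in the differentiating cells and Ifitm3 was lower. Over all genes 9.84% were called higher and 29.4% lower, and the median log2 ratio was -0.26.

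Ifitm3 followed layer. Its level was 1043, 675 and 282 CPM from the lowest to the highest bin in library 1 and 1063, 698 and 287 in library 2, so the outer bins differed by -1.89 on the log2 scale in either library. It fell at each step, as the 1 gene of 3 measured that was called from the lowest to the middle bin (0 higher; over all genes 4.29% higher and 7.09% lower) and from the middle to the highest (0 higher; 5.05% higher and 15.8% lower). The share of cells with a UMI fell less, from 96.6% to 83.3% and from 95.9% to 81.4%, in cells that were deeper at the top.

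Isg15 went the other way, with 21.2, 31.3 and 39.0 CPM in library 1 and 24.9, 33.0 and 52.3 in library 2 (log2 0.88 and 1.07 between the outer bins). Bst2 was at 17.8, 26.6 and 32.6 CPM and at 18.6, 29.7 and 35.5 CPM (0.87 and 0.93). Both steps between neighbouring bins were within 1.5-fold in at least 1 library for each gene. Relative to the median of all genes these differences are larger by 0.26, and that of Ifitm3 is smaller by the same amount.

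The other 7 genes were under 20 CPM, and their values are given without a call. Ifit1 was at 9.35, 13.6 and 10.98 CPM and at 13.3, 14.0 and 19.9 CPM. Oasl2 (log2 -0.16 and 0.00) and Ifi44 (-0.04 and -0.18) had ratios near 0 between the outer bins, and Rtp4 had ratios of -0.59 and -0.24, past 1.5-fold in library 1 only. Gbp2 (-1.08 and -1.14), Cxcl10 (-1.09 and -2.0) and Ifit3 (-2.77 and -1.42) had negative ratios, the last on 5 and 26 UMIs in the top bin. These ratios depend in part on single cells. In the top bin of library 1, 1 cell held 75 of 81 Cxcl10 UMIs and 1 cell held 33 of 124 Gbp2 UMIs. In the lowest bin, single cells held 29 of 37 and 26 of 62 Ifit3 UMIs in libraries 1 and 2.

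**Figure D4:**
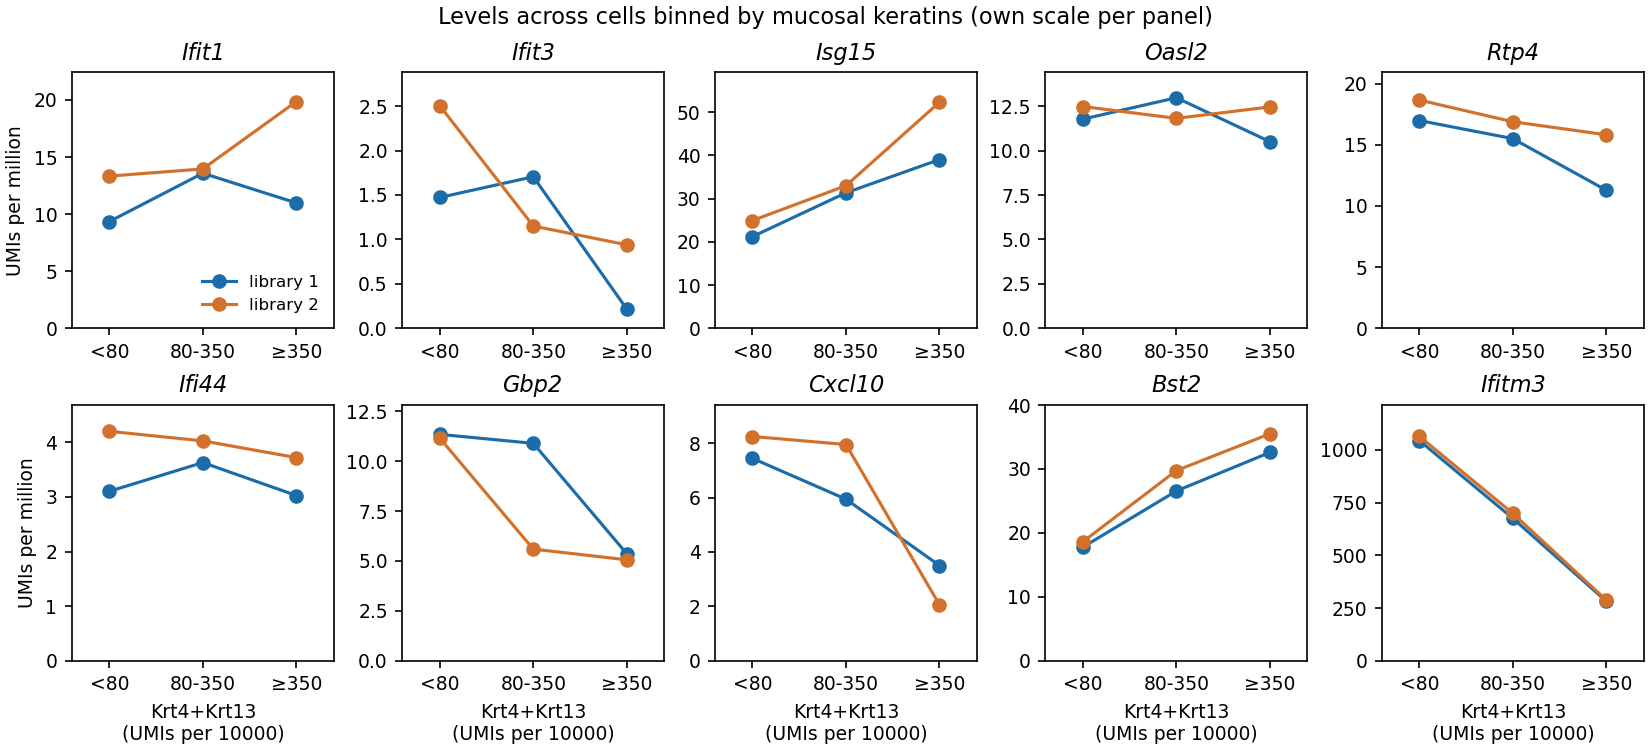
Level of each gene (vertical axes, UMIs per 1000000, each panel from 0 on its own scale) in cells binned by summed Krt4 and Krt13 (horizontal axes, UMIs per 10000), by library. Ifitm3 steps down from about 1043 to 282 CPM in library 1, Isg15 and Bst2 step up, and the others lie under 20 CPM.

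At full depth the share of cells with at least 3 of the 8 was larger in the higher bins, at 2.93%, 3.98% and 5.98% in library 1 and 2.68%, 4.40% and 7.44% in library 2. Median depth was larger alongside, at 6468, 8221 and 14725.5 UMIs and at 5390, 6911 and 11984.5. After thinning, the shares were 1.48%, 1.55% and 1.44% in library 1, with no order, and 1.34%, 1.95% and 2.24% in library 2. The outer intervals of library 2 (1.01% to 1.74% and 1.64% to 2.97%) overlap, which does not show that the shares are alike. Their difference was not tested.

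The same levels were read with cells holding at least 3 of the 8 left out. Isg15 takes part in choosing those cells, and larger shares of the higher bins, where cells are deeper, are removed, so the change in its ratio cannot be assigned to them. There Isg15 was at 9.36 against 13.7 CPM and 11.2 against 15.4 CPM from the lowest to the highest bin (log2 0.54 and 0.46), and Bst2 had ratios of 0.61 and 0.79, both with means under 20 CPM. Ifitm3 was then the 1 gene measured and was lower (-2.15 and -2.10, against 29.1% of genes lower). With the minimum set on the level over all kept cells, 3 genes were measured. Bst2 was then called higher and Ifitm3 lower, where 9.66% of all genes were higher and 29.1% lower. Oasl2 (-1.10 and -0.92), Rtp4 (-1.19 and -0.99) and Ifit1 (-0.99 and -0.84) then had negative ratios, at under 10 CPM in both bins.

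Within the cells holding at least 3 of the 8, no count is read for the 8 genes, since they chose these cells and the bins differ in depth. Ifitm3, which took no part in the choice, was at 2554 CPM in the lowest and 1120 CPM in the highest bin of library 1 and at 2812 and 852 CPM in library 2. Of cells under 80 for Krt4+Krt13, 103 and 110 held at least 3 of the 8.

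The last comparison took cells with at least 10 UMIs per 10000 of Krt16, S100a8 and Alox15 together, which mark an activated keratinocyte state, against all others. There were 116 such cells in library 1 and 176 in library 2, and they were deeper, with medians of 17197 and 13046.5 UMIs against 7615 and 6637. Of 7 genes measured, 7 were higher and 0 lower, where over all genes 4.9% were higher and 18.1% lower and the median log2 ratio was -0.25. Ifit1, Oasl2, Rtp4 and Gbp2 were under 20 CPM in the other cells and were measured only through the class where they are high, so nothing is read from their part of the count. With the minimum set on the level over all kept cells, Isg15, Bst2 and Ifitm3 were measured and 3 of 3 were higher (3.37% over all genes).

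Bst2 was at 149 against 21.1 CPM in library 1 and 158 against 23.2 CPM in library 2, log2 ratios of 2.82 and 2.77. At full depth it was found in 70.7% and 65.9% of these cells against 12.3% and 11.8% of the others. After thinning these shares were 28.4% and 32.4% against 4.90% and 5.37%. Isg15 was at 133 against 26.7 and 153 against 33.3 CPM (2.32 and 2.20). The remaining effectors had ratios of 2.02 and 1.88 for Oasl2, 1.69 and 1.66 for Rtp4, and 1.69 and 1.23 for Ifit1. Ifitm3, which fell with differentiation, was higher here, at 1132 against 662 and 1130 against 648 CPM (0.77 and 0.80).

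Gbp2 was at 62.6 against 7.31 CPM and 32.0 against 6.37 CPM (log2 3.10 and 2.33), and in library 2 alone its mean was under 20 CPM. Few cells carried this: 1 cell of each library held 26 of 137 and 30 of 84 UMIs. Cxcl10 rested on 3 and 7 cells with 81 and 67 UMIs, of which single cells held 44 and 35. Its ratios were 3.01 and 2.35, with a mean under 20 CPM. Ifi44 (1.68 and 2.31) and Ifit3 (2.22 and 1.94) were also under 20 CPM.

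**Figure D5:**
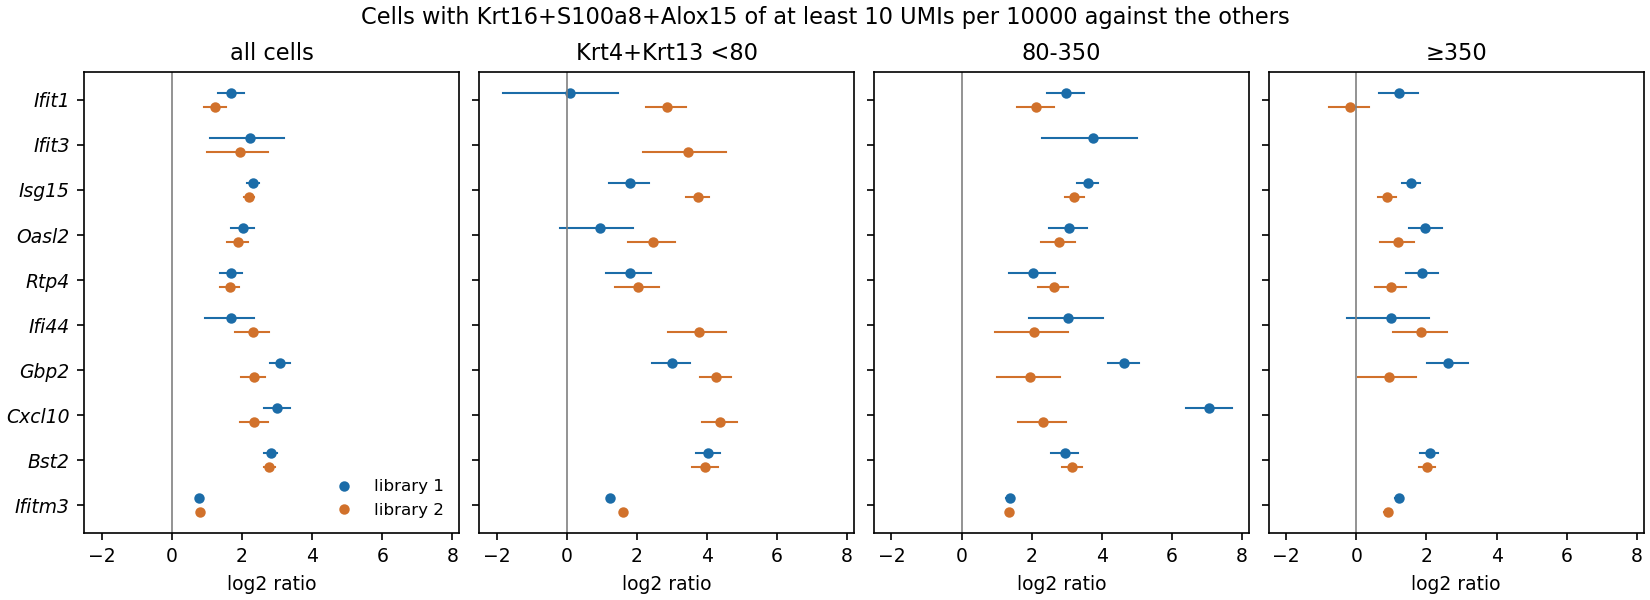
Log2 ratio (horizontal axes) of each gene between cells with at least 10 UMIs per 10000 of Krt16, S100a8 and Alox15 and the other cells, over all cells and within each Krt4+Krt13 bin, by library; bars are 95% exact intervals of counting error, and ratios with 3 or fewer UMIs on a side are not drawn. Bst2 lies above 2 in every panel, and all drawn points over all cells lie above 0.

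Within each bin of Krt4+Krt13, those 3 genes were again higher with that minimum, where the shares of all genes called higher were 7.25%, 4.17% and 1.45% from the lowest bin up. Bst2 had log2 ratios of 4.04 and 3.95, 2.95 and 3.15, and 2.09 and 2.03 in these bins. In the lowest bin, with 27 and 26 cells, Ifit1 stood at 9.88 against 9.34 CPM in library 1 and 88.9 against 12.3 CPM in library 2. Cxcl10 had 0 UMIs there in library 1, and in the top bin it had 1 and 0 UMIs. Its UMIs in the middle bin came from 2 and 4 cells.

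Cells with at least 3 of the 8 made up 29.3% and 30.7% of these cells at full depth. After thinning the shares were 6.03% (2.46% to 12.0%, 7 of 116 cells) and 12.5% (8.002% to 18.3%, 22 of 176 cells), against 1.41% and 1.502% of the other cells. With all cells holding at least 3 of the 8 left out, Bst2 (log2 2.87, mean of the libraries) and Isg15 (1.79) were the 2 genes still called, Ifitm3 was within the rule (0.50), and Gbp2 was at 0.07. Isg15 takes part in choosing the cells left out, which were 29.3% and 30.7% of this class against 3.43% and 3.76% of the others. Between the outer Krt4+Krt13 bins without those cells, Isg15 and Bst2 had means under 20 CPM. They may thus be measured here only through the class where they are high, so nothing is read from these 2 calls. Summed immune markers were lower in the 116 and 176 cells, with Langerhans and myeloid sums of 26.5 and 92.96 CPM against 162 and 371, and Lyz2 at 0 in library 1. T and NK sums were 2.28 and 9.91 CPM against 18.4 and 18.1. Barcodes with at least 5 UMIs per 10000 of these markers went the other way. They numbered 1 and 3 (0.862% and 1.70%), against 0.677% and 0.847% of the other cells.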

How the data were processed

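Buccal mucosa cells of 1 pooled suspension were profiled as 2 technical libraries. The authors deposited whole-number UMI counts per gene and barcode; per the submitters' processing notes these come from Cell Ranger on mm10, with versions and annotation not given in the sources used here. The deposited counts were read with pandas 2.3.3, numpy 2.4.6 and scipy 1.17.1 on Python 3.11.15. Cells with under 500 genes or over 10% mitochondrial UMIs were left out. No doublet caller was run; barcodes above the 95th percentile of UMIs were left out as an alternative. Counts were summed per class of cells and library and given as CPM (UMIs per 1000000). A call needs 1.5-fold the same way in both libraries and a mean of 20 CPM, over the 2 classes compared, and a count of 0 was set to 3. An alternative sets that minimum on the level over all kept cells. Intervals are 95% exact binomial, for shares and (conditional) for ratios. The rule was tested on simulated data. Depth was held equal by thinning each cell to 3000 UMIs. The 10 genes, the cuts and the pathway lists were chosen with earlier results of these data known. Named genes are the 10 in every comparison, of each pathway list the 4 of highest level and any called, and the 12 furthest non-members each way. Some genes that this rule names are not reported here. Positions of genes follow GENCODE on GRCm38, and promoter sequences RefSeq.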

Additional observations from a re-analysis of the deposited data

How the results depend on the processing

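No paired analysis was possible because all samples belong to 1 group. Across 23 settings, 113 of 130 values that answer a comparison stayed within 1.5 times or within error. These are shares and counts of genes, which have no sign to reverse, and a count of 0 that stayed 0 is among the unchanged. Of 448 values of single genes, 385 were the same, 34 were no longer called and 19 became called. The other 10, of genes not called in the main setting, changed sign. No gene called in the main setting changed sign. The cause of these changes was not tested.

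The share of cells with at least 3 of the 10 (9.48%, libraries together) was 4.19% after thinning, 10.7% with at most 5% mitochondrial UMIs, 8.61% without barcodes above the 95th percentile of UMIs, 4.11% for 3 of the 8 and 5.33% for at least 4. Leaving out either library gave 9.44% to 9.53%. Pathway genes higher (23) were 45 after thinning, 52 with a mean of 5 CPM and 9 with 50 CPM. Between the outer Krt4+Krt13 bins, the 2 genes higher were 0 under a 2-fold rule, 0 with 50 CPM and 0 without cells holding 3 of the 8, and the 1 gene lower was 3 with 5 CPM. Without cells holding 3 of the 8, Bst2 was past 1.5-fold in both libraries but had a mean under 20 CPM. With the minimum set on the level over all kept cells, Bst2 was called higher there. By Krt16, S100a8 and Alox15, the 7 genes higher were 3 with 50 CPM, 2 without cells holding 3 of the 8, and 4 without cells holding 3 of the 8 after thinning, an alternative added after seeing the data. With the minimum of 20 CPM set on the level over all kept cells, also added after seeing the data, 3 genes were higher in cells chosen by the other 9 and 3 by Krt16, S100a8 and Alox15, because fewer genes were measured. Leaving out 1 library gave 6 to 8 genes higher in cells chosen by the other 9 and by Krt16, S100a8 and Alox15 alike (Gbp2 was lost without library 1 and Cxcl10 gained without library 2), 2 higher and 1 lower between the bins, and 23 to 24 pathway genes. Depth limits genes under 20 CPM, 7 of the 10 between bins, for which no call could be made.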
